A study of Mus musculus with 18 samples.

Results

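The 10 genes described here are Slc2a1, Hk2, Pfkp, Pgk1, Ldha, Pdk1, Vegfa, Bnip3, Egln3 and Ankrd37, a named list of glycolysis and hypoxia response genes. They were found by symbol among the 24062 genes of the count files, and all 10 passed the filter on low counts together with 12140 genes in all. Their levels were read in all 18 samples of the study, by cell line, by electroporated protein and by a number in the sample titles.

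Glycolysis splits glucose into pyruvate, and fibroblasts in culture pass much of that pyruvate on to lactate. When oxygen is low, the prolyl hydroxylases (EGLN proteins) no longer mark the HIF alpha subunits for the VHL ubiquitin ligase, and HIF alpha accumulates, pairs with ARNT and binds short hypoxia response elements near its targets. The targets include glucose transporters, most glycolytic enzymes, a brake on pyruvate dehydrogenase, and one of the hydroxylases itself. In cultured cells the same genes also follow cell density, nutrient supply and growth signals.

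Slc2a1 encodes the glucose transporter GLUT1, Hk2 encodes hexokinase 2, which traps glucose as glucose 6-phosphate, and Pfkp encodes the platelet-type phosphofructokinase that commits sugar to glycolysis. Pgk1 encodes phosphoglycerate kinase, an ATP-forming step, and Ldha encodes the lactate dehydrogenase subunit that turns pyruvate into lactate. Pdk1 encodes a kinase that inhibits pyruvate dehydrogenase, and Bnip3 encodes a mitochondrial receptor for mitophagy. Vegfa encodes the secreted angiogenic growth factor VEGF-A. Egln3 encodes the prolyl hydroxylase PHD3, an enzyme of the oxygen-sensing loop that is itself a HIF target. Ankrd37 encodes an ankyrin-repeat protein known mainly as a hypoxia-induced transcript.

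The samples were cells of NIH3T3, a mouse embryonic fibroblast line, and of NIH3T3-mCherry-mTRIM21, the same line carrying mouse TRIM21 fused to the red fluorescent protein mCherry; they are called the WT and TRIM21 lines below. TRIM21 is an antibody receptor and ubiquitin ligase, and the series title names the acute degradation of endogenous protein. Both lines were grown in 10% calf serum, electroporated (1400 V, 20 ms, 2 pulses) with 7.5 µg of an antibody (IgG) or of bovine serum albumin (BSA), or with phosphate-buffered saline (PBS) alone, and lysed 16 h later. Each of the 6 groups of line and treatment had 3 samples, all of them electroporated, so no group shows cells that were not pulsed. The promoter that drives the fusion and the number of clones in the TRIM21 line are not given in the labels. It is 1 derived line, so the fusion cannot be told apart from other differences between the lines. The titles carry the number 10, 11 or 14, each once in every group, and the labels do not say what the number marks or whether the samples were separate cultures; p-values then measure only the spread between these samples, which may be technical.

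Reads assigned to genes numbered 19509017 to 29766433 per sample, so even Ankrd37, which had the fewest reads of the 10 genes, was counted with 224 to 1432 reads. Trim21 was counted 142 to 223 times in the WT samples and 19900 to 32225 times in the TRIM21 samples, as labelled. The summed level of 8 fibroblast markers was 16440 to 31150 CPM (counts scaled to the size of the library), with all 8 tested. Of the other cell types, 4 epithelial markers summed to 0.0479 to 0.583 CPM, 4 endothelial markers to 0.479 to 2.60 CPM and 4 leukocyte markers to 4.84 to 8.75 CPM, most of the last being Cd68.

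Hypoxia response elements have the core ACGTG or GCGTG, and the 250 bases before the RefSeq transcription start (mouse build GRCm38.p6) were searched on both strands for each of these letters. ACGTG was present upstream of 7 of the 10 genes (Slc2a1, Hk2, Pgk1, Ldha, Bnip3, Egln3 and Ankrd37) against 16.6% of 27018 mouse genes in windows of the same length. GCGTG was present upstream of 5 of the 10, against 28.2% of genes, and neither was found upstream of Vegfa. Shares in 3 related lists, taken up below, are given for comparison. ACGTG was upstream of 31.2% of 16 other glycolysis genes, 37.5% of 8 oxygen-sensing genes and 42.9% of 14 other HIF targets. GCGTG was upstream of 50%, 50% and 71.4% of them, so it was no more frequent in the 10 than in these lists. Windows of 4 genes are printed because these are the genes whose levels differed between title numbers in the sections that follow. Each is given 5′ to 3′ on the gene's strand, which is the minus strand for all 4, and capitals mark ACGTG or its reverse complement CACGT. The windows are chr8:45999851-46000100 for Ankrd37, chr6:82774455-82774704 for Hk2, chr12:54203875-54204124 for Egln3 and chr17:46032378-46032627 for Vegfa. In GENCODE M21 on the same build the genes themselves lie at chr8:45996902-46005707, chr6:82725025-82774454, chr12:54178981-54203860 and chr17:46016993-46032369. The Ankrd37 window therefore falls inside the GENCODE gene, which begins further upstream than the RefSeq start, and the other 3 lie at or just before the GENCODE start.
Ankrd37: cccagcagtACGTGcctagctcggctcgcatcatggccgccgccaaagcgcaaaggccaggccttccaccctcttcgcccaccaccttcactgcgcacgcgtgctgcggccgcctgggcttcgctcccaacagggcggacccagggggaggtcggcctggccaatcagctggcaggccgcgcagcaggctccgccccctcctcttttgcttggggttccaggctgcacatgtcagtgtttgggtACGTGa
Hk2: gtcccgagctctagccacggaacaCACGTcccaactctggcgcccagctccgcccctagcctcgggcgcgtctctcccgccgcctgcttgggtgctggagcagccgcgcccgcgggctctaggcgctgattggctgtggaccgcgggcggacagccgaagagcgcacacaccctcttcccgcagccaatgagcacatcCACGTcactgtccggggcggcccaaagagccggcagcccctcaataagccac
Egln3: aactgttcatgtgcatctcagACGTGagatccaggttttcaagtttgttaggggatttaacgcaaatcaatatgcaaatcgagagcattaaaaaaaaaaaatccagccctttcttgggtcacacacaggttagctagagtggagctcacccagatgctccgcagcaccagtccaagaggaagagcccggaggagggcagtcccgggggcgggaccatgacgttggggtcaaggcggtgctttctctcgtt
Vegfa: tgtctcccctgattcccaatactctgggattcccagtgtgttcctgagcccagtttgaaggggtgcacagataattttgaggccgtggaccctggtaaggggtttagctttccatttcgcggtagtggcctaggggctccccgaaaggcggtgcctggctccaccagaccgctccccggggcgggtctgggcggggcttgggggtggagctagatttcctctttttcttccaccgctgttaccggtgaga
Ankrd37 held 2 ACGTG matches, 1 of them 6 bases before the start, and Hk2 held 2, which lay 226 and 52 bases before it. Egln3 held 1 ACGTG match, 229 bases before the start. Ankrd37 also held 2 GCGTG matches, which are left in lower case. A match is only a run of letters; binding was not measured in these samples.

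Per exon length, the 10 genes spanned a wide range of levels, with the lactate-forming enzyme at the top and phosphofructokinase at the bottom. Ldha averaged 1067 ± 109 RPKM (SD, n = 18), which are reads scaled to the length of the merged exons and to the size of the library. Pgk1 averaged 453.8 ± 48.2 RPKM, and neither gene's range over the samples met that of its neighbour in the order. Bnip3 (179 ± 29.9 RPKM) and Slc2a1 (151 ± 26.4 RPKM) followed, with overlapping ranges and Bnip3 the higher of the pair in 15 of 18 samples. Pdk1 lay at 61.7 ± 9.44 RPKM, below Slc2a1 in every sample with no overlap of the ranges. Vegfa (37.2 ± 7.43 RPKM) and Egln3 (34.3 ± 9.58 RPKM) did not differ beyond their spread, Vegfa being the higher in 10 of 18 samples. Hk2 (20.8 ± 4.10 RPKM), Ankrd37 (18.5 ± 9.40 RPKM) and Pfkp (7.82 ± 1.29 RPKM) closed the order with overlapping ranges. The order of Hk2 and Ankrd37 depends on the length used: per base of the longest annotated transcript, Ankrd37 was at 30.8 and Hk2 at 22.5. Reads that align to more than one place were left out of the gene counts, so genes with near-identical processed copies in the genome, such as Ldha and Pgk1, may be counted low.

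**Figure D1:**
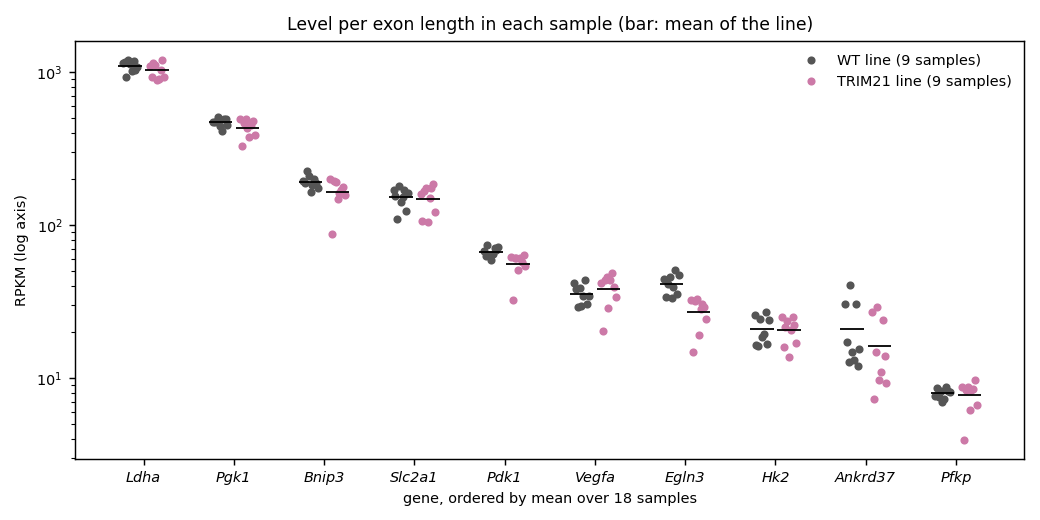
Level per exon length (RPKM, log axis) of the 10 genes in each of the 9 WT samples (grey) and 9 TRIM21 samples (pink), ordered by the mean over 18 samples; bars are line means. Ldha lies highest at a mean of 1067 RPKM and Pfkp lowest at 7.82 RPKM, and only for Egln3 do the samples of the lines form separate ranges.

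The relative spread over the 18 samples also differed between the genes. The coefficient of variation of the CPM values was 10.2% for Ldha and 10.6% for Pgk1, the most abundant genes. It was between 15.3% and 20.0% for Pdk1, Pfkp, Bnip3, Slc2a1, Hk2 and Vegfa. Egln3 varied by 27.96% and Ankrd37 by 50.7%, the largest value of the 10. The 3 Ankrd37 samples of a single group already varied by 46.5% to 66.9%.

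**Figure D2:**
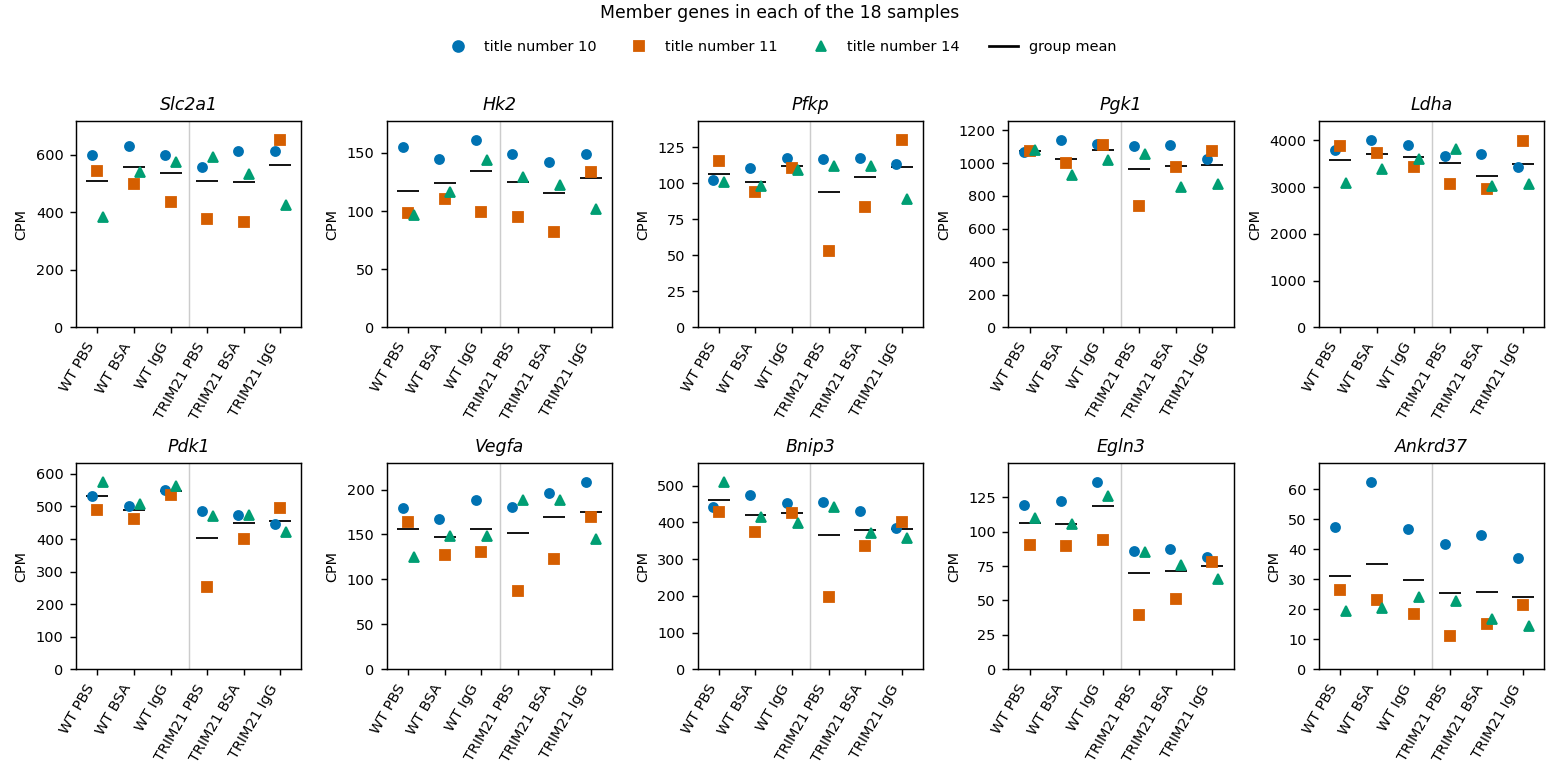
CPM of each gene in the 18 samples by group (WT left of the grey line, TRIM21 right), with symbols for the title number and bars for group means; each vertical axis starts at 0. Number 10 (blue circles) is the highest of the 3 samples in 6 of 6 groups for Hk2, Egln3 and Ankrd37, and TRIM21 PBS number 11 (square) is the lowest of the 18 samples for 7 of the 10 genes.

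The first comparison asked whether the line carrying mCherry-mTRIM21 differed from its parent in these genes. Egln3, the HIF-inducible prolyl hydroxylase, was lower in the TRIM21 line, and it was the 1 gene of the 10 that passed the test, at an adjusted p under 0.05. Across all genes tested, 6.18% passed, made up of 4.79% lower and 1.39% higher in the TRIM21 line, so 1 of 10 is close to the background. The glucose transporter, the glycolytic enzymes, Vegfa, Bnip3 and Ankrd37 did not pass. This fit had no term for the title number. With that term, Egln3 was still the 1 gene of the 10 that passed, where 12% of all genes did. With an adjustment for the GC content of genes as well, Pdk1 and Ankrd37 passed too, where 19.5% of all genes did.

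Given in the order of title numbers 10, 11 and 14, Egln3 was at 119, 90.3 and 110.2 CPM in the WT samples after PBS. It was at 122, 89.6 and 105 CPM in the WT samples after BSA, and at 136, 93.9 and 126 CPM after IgG. In the TRIM21 line it was at 85.8, 39.4 and 85.2 CPM after PBS, 87.4, 51.2 and 75.9 CPM after BSA, and 81.4, 77.9 and 65.2 CPM after IgG. Every TRIM21 sample lay below every WT sample, so the ranges of the lines did not overlap, although the highest TRIM21 and lowest WT values were close. Averaged over treatments, Egln3 had a log2 fold change of -0.61 with a standard error of 0.14, or 34.5% less, with an adjusted p of 0.0121 (edgeR quasi-likelihood test, adjusted by Benjamini-Hochberg over all genes tested). It was lower in the TRIM21 sample in 9 of 9 sets of the same treatment and title number, which follows from the separate ranges. Within numbers 10, 11 and 14 the log2 difference was -0.56, -0.76 and -0.60. Without TRIM21 PBS number 11, the lowest sample, the log2 fold change was -0.52 and the adjusted p 0.00666. In samples of whole cultures, fewer cells that express a gene and less RNA per cell cannot be told apart.

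Pdk1, the pyruvate dehydrogenase kinase, did not pass the test, with a log2 fold change of -0.27, a standard error of 0.098 and an adjusted p of 0.12 by the same test. Compared within the same treatment and title number, it was lower in the TRIM21 sample in 9 of 9 sets; the numbers were not shown to pair the samples, so this is a description. Its WT samples ran from 462 to 575 CPM with a median of 531, and its TRIM21 samples from 252 to 497 CPM with a median of 472. The ranges overlapped. Without TRIM21 PBS number 14, Pdk1 passed at -0.32 with an adjusted p of 0.0439 in the same test, where 10.4% of all genes passed. Bnip3 and Pgk1 were each lower in 8 of 9 such sets, with log2 fold changes of -0.21 and -0.11 and adjusted p-values of 0.315 and 0.435. Vegfa had the 1 positive estimate, 0.11, with an approximate 95% interval from -0.17 to 0.38. Intervals here and below come from the standard error by a normal approximation, which is too narrow for so few samples. They can therefore exclude 0 where the test gives a p above 0.05. For Slc2a1, Hk2 and Pfkp the estimates lay between -0.05 and -0.02, with approximate 95% intervals that stayed within -0.29 and 0.24. These intervals leave room for differences of up to about that size, so the test does not show that the lines were alike. The median of the 10 log2 fold changes was -0.10, with 9 of 10 below 0, against a median of 0.01 over all genes tested. Without TRIM21 PBS number 11 that median was -0.07, with 6 of 10 below 0.

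Taken treatment by treatment, none of the 10 genes passed between the lines after PBS, BSA or IgG, where 1.71%, 0.848% and 0.774% of all genes passed. For Egln3 the log2 fold changes were -0.60, -0.56 and -0.67, and their adjusted p was 0.19, 0.422 and 0.426 (edgeR quasi-likelihood test). Each of these rests on 3 samples against 3, and without adjustment p was 0.0229, 0.0313 and 0.0131. Pdk1 had an unadjusted p of 0.0298 after PBS, and no other gene of the 10 was below 0.05 without adjustment. Over all 12140 genes tested, 2409, 1253 and 946 were below 0.05 without adjustment after PBS, BSA and IgG. The DESeq2 and limma-voom tests also called none of the 10 after any of the 3 treatments. With only the groups compared in the fit, Egln3 did pass after IgG, with an adjusted p of 0.0429 (edgeR quasi-likelihood test).

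The summed fibroblast markers ran from 16440 to 27550 CPM in the TRIM21 line and from 23280 to 31150 CPM in the WT line. The summed leukocyte markers ran from 4.84 to 8.75 CPM and from 5.25 to 7.49 CPM. The part of these differences in the Egln3 result was not tested.

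The second comparison asked whether the electroporated protein changed these genes within a line. None of the 10 genes passed for IgG against PBS, IgG against BSA or BSA against PBS in either line. The share of all genes that passed was 0% in each of the 6 comparisons (edgeR quasi-likelihood test), in which between 45 and 713 of 12140 genes had an unadjusted p under 0.05, none of them among the 10. DESeq2 and limma-voom also called no gene. The IgG and BSA comparisons share the PBS samples of their line and are not independent.

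In the WT line, the 10 log2 fold changes of IgG against PBS ran from -0.11 (Bnip3) to 0.20 (Hk2). For Hk2 the approximate 95% interval was -0.25 to 0.66, so a difference of that size in hexokinase 2 RNA was not detectable with 3 samples against 3. In the TRIM21 line, which carries the added antibody receptor, the log2 fold changes of IgG against PBS ran from -0.06 (Ankrd37) to 0.24 (Pfkp), with 8 of 10 above 0. For Pfkp the interval was -0.18 to 0.65. The most precise estimates were those of the abundant enzymes: Ldha at -0.01 with an interval of -0.27 to 0.26, and Pgk1 at 0.03 with an interval of -0.24 to 0.31. Ankrd37 was the least precise, with an interval of -1.14 to 1.02. The title number was not a term in this fit, so the differences of Ankrd37 between numbers, given below, are part of that width.

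Those signs in the TRIM21 line rested on 1 sample. Without TRIM21 PBS number 11, all 10 genes had negative log2 fold changes of IgG against PBS, with a median of -0.09, where the median with it was 0.08. For BSA against PBS the median went from 0.02, with 7 of 10 above 0, to -0.19, with 10 of 10 below 0. No gene of the 10 passed in either case.

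The difference between the lines in their response to treatment was tested as an interaction. None of the 10 genes and 0% of all genes passed in the 3 interactions (edgeR quasi-likelihood test), with 221 to 790 genes at an unadjusted p under 0.05 and no gene of the 10 among them. The interaction estimates ran from -0.19 (Hk2, BSA against PBS) to 0.27 (Pdk1, BSA against PBS), and the adjusted p-values for these were 0.839 and 0.699.

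The third comparison was between the title numbers, with the group as a term in the fit and 6 samples per number. Ankrd37, Hk2, Egln3 and Vegfa were lower in number 11 than in number 10, and Ankrd37 and Hk2 were also lower in number 14 than in number 10. Thus 4 of the 10 genes passed for 11 against 10, all as lower, where 3.8% of all genes passed and 2.02% passed as lower. For 14 against 10, 2 of the 10 passed, both lower, against 8.44% of all genes and 4.92% as lower. For 14 against 11 none of the 10 passed, against 5.23% of all genes. That count of 0 is from the edgeR quasi-likelihood test. There 1 gene of the 10, Egln3, had an unadjusted p under 0.05, as did 2910 of 12140 genes. DESeq2 called Egln3, where 8.76% of all genes passed, while limma-voom called none of the 10, where 5.41% did.

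Ankrd37 had the largest differences of the 10 genes. Its 6 samples numbered 10 were at 47.3, 62.4 and 46.7 CPM in the WT line after PBS, BSA and IgG, and at 41.9, 44.9 and 36.9 CPM in the TRIM21 line. In the same order its samples numbered 11 were at 26.5, 22.9, 18.5, 11.2, 14.98 and 21.4 CPM. Those numbered 14 were at 19.6, 20.4, 24.0, 22.8, 16.9 and 14.3 CPM. The lowest sample numbered 10 stood above all 12 others, the highest of which was at 26.5 CPM, so number 10 did not overlap the rest, while 11 and 14 overlapped throughout. The log2 fold change was -1.28 (SE 0.15, adjusted p = 0.000328, edgeR quasi-likelihood test) for 11 against 10. It was -1.24 (SE 0.15, adjusted p = 0.000395) for 14 against 10 in the same fit. For 14 against 11 it was 0.05 with an approximate 95% interval of -0.26 to 0.35. Both calls for Ankrd37 were made in 18 of 18 fits that left out 1 sample.

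Hk2, which traps glucose in the cell, was at 155, 144 and 161 CPM in the WT samples numbered 10 after PBS, BSA and IgG, and at 149, 142 and 149 CPM in the TRIM21 samples. Numbered 11 it was at 98.6, 111, 99.1, 95.1, 82.3 and 133 CPM in that order. Numbered 14 it was at 96.9, 117, 144, 129, 122 and 102 CPM. Number 10 was the highest of the 3 samples in 6 of 6 groups, and the lowest of its samples, at 142 CPM, overlapped only WT IgG number 14. Hk2 had a log2 fold change of -0.55 (SE 0.10, adjusted p = 0.00893, edgeR quasi-likelihood test) for 11 against 10, kept in 18 of 18 fits without 1 sample. For 14 against 10 it was -0.34 (SE 0.10, adjusted p = 0.045), and this call was lost in 13 of 18 such fits, with adjusted p-values from 0.0296 to 0.159.

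Egln3 was also highest in number 10 in 6 of 6 groups and lowest in number 11 in 5 of 6. Over both lines it ran from 81.4 to 136 CPM with a median of 103 in number 10, from 39.4 to 93.9 CPM with a median of 83.8 in number 11, and from 65.2 to 126 CPM with a median of 95.3 in number 14. Over both lines the 3 ranges overlapped; within each line number 10 lay above number 11 without overlap, while numbers 10 and 14 overlapped. With the group in the fit, Egln3 had a log2 fold change of -0.53 (SE 0.11, adjusted p = 0.0197, edgeR quasi-likelihood test) for 11 against 10. The call was lost without TRIM21 BSA number 10 and without WT IgG number 10, with an adjusted p of at most 0.0622. In these fits 2 of the 10 genes passed, where 1.03% and 1.24% of all genes did. For 14 against 11 Egln3 was at 0.38 (SE 0.11) with an adjusted p of 0.0624 in the same test. It passed without TRIM21 IgG number 11, TRIM21 IgG number 14 or WT PBS number 11, where 4.35%, 6.04% and 10.3% of all genes did.

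Vegfa ran from 167 to 208 CPM with a median of 184 in number 10, from 87.6 to 169.7 CPM with a median of 129 in number 11, and from 125 to 188 CPM with a median of 149 in number 14. All 3 ranges overlapped, narrowly for 10 and 11. Its log2 fold change for 11 against 10 was -0.49 (SE 0.13), with an adjusted p of 0.0487 by the edgeR quasi-likelihood test, at the edge of the threshold. The call was lost in 13 of 18 fits without 1 sample, and without TRIM21 PBS number 11 the value was -0.36 with an adjusted p of 0.105. Without that sample, 3 of the 10 genes (Hk2, Egln3 and Ankrd37) passed for 11 against 10, where 2.05% of all genes did. The 2 calls for 14 against 10 stood, where 12.2% of all genes passed. Hk2 had an adjusted p of 0.0488 there (edgeR quasi-likelihood test).

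The 6 other genes did not pass between any of the numbers. Slc2a1 was at -0.34 (SE 0.13, adjusted p = 0.172, edgeR quasi-likelihood test) and Bnip3 at -0.31 (SE 0.13, adjusted p = 0.211) for 11 against 10, both with an unadjusted p under 0.05. Over all genes tested, 2323 of 12140 had an unadjusted p under 0.05 in this comparison. Pfkp, Pdk1, Pgk1 and Ldha lay between -0.23 and -0.10. All 10 genes were below 0 for 11 against 10, with a median of -0.32 against -0.01 over all genes tested, and without TRIM21 PBS number 11 the median was -0.21 and still 10 of 10 were below 0. For 14 against 10, 9 of 10 were below 0 with a median of -0.18, and Pdk1 was at 0.01. The comparisons with number 10 share its samples, so their likeness is no separate evidence. In a test for any difference among the 3 numbers, Ankrd37, Hk2 and Egln3 passed, 3 of 10 against 11.2% of all genes. The same 3 passed without TRIM21 PBS number 11, where 10.3% of all genes did.

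**Figure D3:**
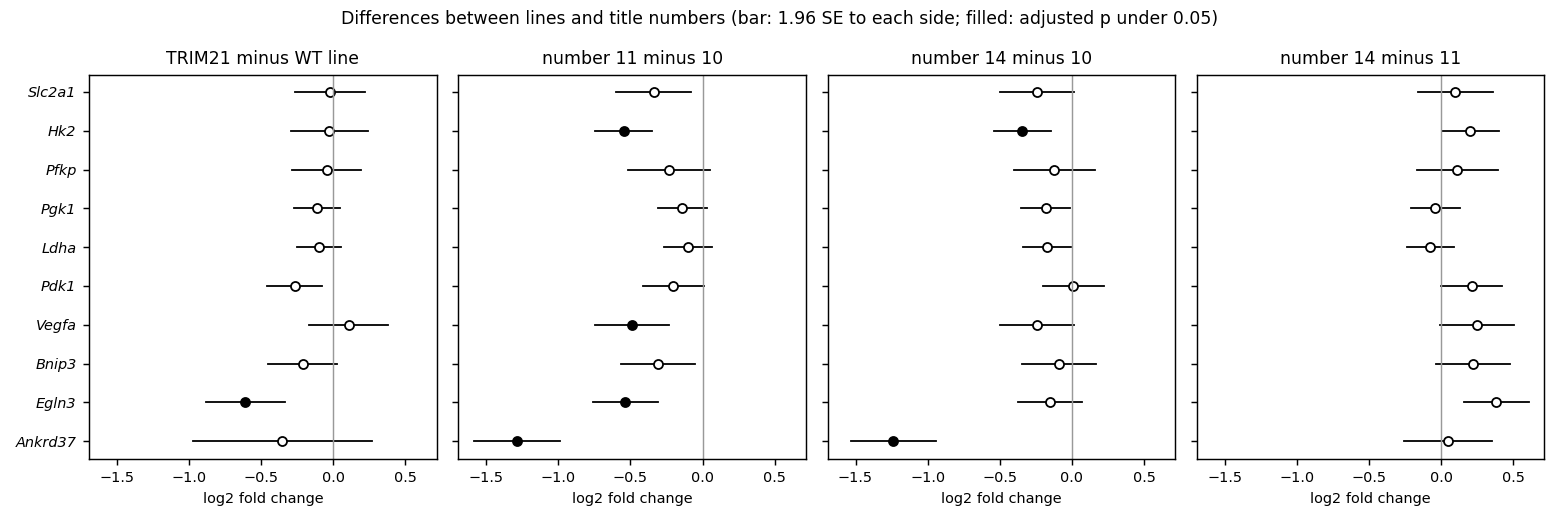
Log2 fold change of each gene between the lines (averaged over treatments) and between title numbers (adjusted for group). Bars are approximate 95% intervals from the standard error, which can exclude 0 where the test gives a p above 0.05. Filled points have an adjusted p under 0.05. Egln3 at -0.61 is the 1 filled point between the lines, and 4 genes are filled for number 11 against 10 and 2 for number 14 against 10, led by Ankrd37 at -1.28 and -1.24.

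Other measures are given here by number, without a test. Their ranges overlapped, except for the leukocyte marker sums of numbers 10 and 11. The share of reads in no annotated gene was 13.1% to 17.0% in samples numbered 10, 15.04% to 18.3% in those numbered 11 and 15.2% to 18.8% in those numbered 14. The summed leukocyte markers were 4.84 to 6.28 CPM in number 10, 6.40 to 8.75 CPM in number 11 and 5.61 to 7.49 CPM in number 14. The summed fibroblast markers were 23310 to 28940 CPM, 16440 to 26520 CPM and 24610 to 31150 CPM. Their part in the differences between numbers was not tested.

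Split by line, with 3 samples per number, each fit had fewer samples. In the WT line alone 1 of the 10 genes passed for 11 against 10 and 1 for 14 against 10, where 12 and 14 genes passed in all. In the TRIM21 line alone 0 and 1 of the 10 passed, where 0 and 65 genes passed in all. Whether the lines differed in their number effects was not tested.

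TRIM21 PBS number 11 stood apart in these genes. It lay below the mean of its group for 10 of 10 genes, by 0.59 on average on the log2 CPM scale, and it was the lowest of all 18 samples for 7 of them and second lowest for 2. Relative to the mean of the other 2 samples of its group, Ankrd37 was at 34.6%, Bnip3 at 43.9%, Egln3 at 46.1%, Pfkp at 46.3% and Vegfa at 47.5%. Pdk1 was at 52.5%, Slc2a1 at 65.2%, Hk2 at 68.3% and Pgk1 at 68.5%. Ldha, at 82.1%, stood closest to the other samples.  The same sample also had the lowest summed fibroblast markers, 16440 CPM.

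TRIM21 BSA number 11 was the lowest of the 18 for the other 3 genes, Slc2a1, Hk2 and Ldha, and second lowest for 5 more. TRIM21 IgG number 11 went the other way, with 8 of 10 genes above its group mean and the highest Pfkp and Slc2a1 values of all samples, 130.02 and 650.5 CPM. In that group the low sample was number 14, with 10 of 10 genes below the mean by 0.26 on average. Number 10 lay above its group mean by 0.16 to 0.35 on average in each of the 6 groups.

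**Figure D4:**
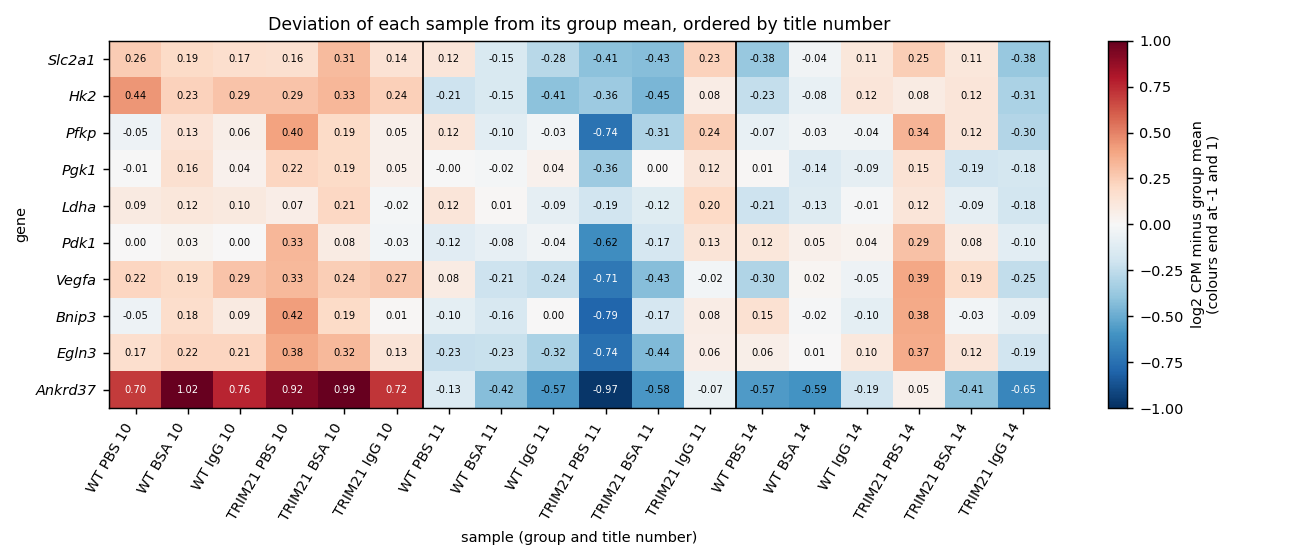
Deviation of each sample from its group mean (log2 CPM, colour and printed value) for the 10 genes, with samples ordered by title number and lines between numbers. The Ankrd37 row is at 0.70 or above in every sample numbered 10, and the TRIM21 PBS 11 column is below 0 for all 10 genes.

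The 10 genes varied together from sample to sample. After group means were removed, all 45 pairs of genes had a positive Pearson correlation over the 18 samples, from 0.458 to 0.954 with a median of 0.749. The Spearman values ran from 0.371 to 0.884. Because number 10 forms a cluster of its own for Ankrd37, the mean of each number was also removed, and the Pearson values then ran from 0.220 to 0.957 with a median of 0.785. Without the 2 samples farthest from the median they ran from 0.191 to 0.879, and without TRIM21 PBS number 11 from 0.205 to 0.905 with a median of 0.634. By Pearson r the highest pair was Pdk1 with Bnip3 at 0.954, with a Spearman rho of 0.820. Its Pearson r fell to 0.836 without the 2 samples farthest from the Pdk1 median, and to 0.723 without TRIM21 PBS number 11. Without that last sample the highest pair was Slc2a1 with Vegfa at 0.905. For Pdk1 with Bnip3, exact permutation within groups gave p-values of 0.00178 and 0.00324, or 0.00800 and 0.0112 adjusted over the 45 pairs. The lowest was Ldha with Pdk1 at 0.458 and 0.371, with exact permutation p-values of 0.119 and 0.247 (adjusted 0.122 and 0.247). The samples share depth and title number, and the correlations describe these 18 samples. Pairs of other genes were not compared, so whether the shared variation is particular to these 10 genes was not tested.

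By the likeness of its deviations to the mean deviation of the 10 genes, the nearest other genes were Kctd11 (Pearson r 0.962), Stc1 (0.961), Hilpda (0.958), Higd1a (0.958) and Gpr146 (0.953), over 18 samples and given as a description. With number means removed the 5 values were between 0.915 and 0.956. Hilpda had a median of 67.3 CPM in number 10, 34.7 CPM in number 11 and 38.3 CPM in number 14. Stc1 had medians of 38.5, 26.2 and 28.1 CPM in that order.

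Of 17 other genes of glucose entry, glycolysis and lactate export, 13 were tested, and Slc2a3, Aldoc, Eno1 and Slc16a3 were counted with 0 to 10 reads per sample and were not. None of the 13 passed between the lines, where 6.18% of all genes did, or between the numbers. For the lines and for number 11 against 10, respectively, 2 and 3 of them had an unadjusted p under 0.05. Over all 12140 genes tested, 2600 and 2323 did. For 11 against 10 all 13 were below 0, with a median of -0.14; without TRIM21 PBS number 11, 11 of 13 were below 0 with a median of -0.10. Without that sample 1 of the 13 passed for 14 against 10, where 12.2% of all genes did: Ldhb, a lactate dehydrogenase subunit named here after its value was seen, was at -0.21 (adjusted p = 0.0447, edgeR quasi-likelihood test). Tpi1, which encodes triosephosphate isomerase, had the lowest estimate of the 13 for 11 against 10, -0.27, and did not pass. It had medians of 1878, 1591 and 1599 CPM in numbers 10, 11 and 14. Eno1, the gene of alpha-enolase, was counted 0 to 2 times, and reads shared with near-identical copies would not be counted.

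Of the oxygen-sensing genes, Hif1a was present at 322.5 ± 38.5 CPM (SD, n = 18) and did not pass between the lines or the numbers, with medians of 325, 310 and 328 CPM in the order 10, 11 and 14. Epas1, which encodes HIF-2 alpha, was counted at most once in a sample. Egln1, the gene of the main prolyl hydroxylase PHD2, was at 81.2 RPKM against 34.3 RPKM for Egln3, both per exon length. Of 9 genes of this list, 8 were tested, and 1 passed between the lines, where 6.18% of all genes did: Arnt2, an alternative partner of HIF alpha, was lower in the TRIM21 line with a log2 fold change of -0.46 (adjusted p = 0.00156, edgeR quasi-likelihood test). For number 11 against 10, 1 passed as lower and 1 as higher, where 3.8% of all genes passed in either direction. Vhl, the HIF-directed ubiquitin ligase component, was at -0.37 (adjusted p = 0.0131, edgeR quasi-likelihood test), and the call was lost without TRIM21 BSA number 10. Hif3a was at 1.60 with an adjusted p of 0.0483 by the same test, on 0 to 13 reads per sample, and the call was lost in 15 of 18 fits without 1 sample.

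Some other known HIF targets also passed between the numbers. Of 20 listed, 19 were tested, and all 19 were below 0 for number 11 against 10, with a median of -0.31. Among them 5 passed, all lower, where 3.8% of all genes passed and 2.02% passed as lower: Bhlhe40, a transcriptional repressor, at -0.91 (adjusted p = 0.000199, edgeR quasi-likelihood test), Kdm3a, a histone demethylase, at -0.61, the adrenomedullin gene Adm at -0.92, the mitochondrial adenylate kinase gene Ak4 at -0.38, and Ddit4, an inhibitor of mTORC1 signalling, at -0.76. For 14 against 10, 4 of 19 passed, all lower, against 8.44% of all genes and 4.92% as lower: Bhlhe40 at -1.07, Ddit4 at -1.01, Adm at -0.92 and Kdm3a at -0.38. Bhlhe40 had medians of 199.9, 113 and 92.9 CPM in numbers 10, 11 and 14, with a lowest value of 189.9 CPM in number 10 and highest values of 129 and 115 CPM in the others. For 14 against 11, 1 of 19 passed, near the 5.23% of all genes: Mxi1, a MAX-binding repressor, was higher at 0.48. Kdm3a for 14 against 10 was lost in 2 of 18 fits without 1 sample, and Mxi1 in 3 of 18.

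Between the lines, 3 of these 19 passed, all lower in the TRIM21 line, against 6.18% of all genes and 4.79% as lower, with a list median of -0.24 and 17 of 19 below 0. Car9, the carbonic anhydrase gene often used as a hypoxia marker, ran from 5.60 to 21.0 CPM with a median of 17.5 in the TRIM21 line and from 21.1 to 30.9 CPM with a median of 25.5 in the WT line, without overlap. Its log2 fold change was -0.68 (adjusted p = 0.0225, edgeR quasi-likelihood test), lost without WT BSA number 14. P4ha1, a collagen prolyl hydroxylase subunit gene, was at -0.31 (adjusted p = 0.0379, edgeR quasi-likelihood test), and this call was lost in 11 of 18 fits without 1 sample. Ppp1r3c, which encodes a glycogen-targeting phosphatase subunit, was counted 0 to 5 times in TRIM21 samples and 8 to 28 times in WT samples. Without TRIM21 PBS number 11 the list median was -0.13, with 4 of 19 passing against 5.6% of all genes.

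**Figure D5:**
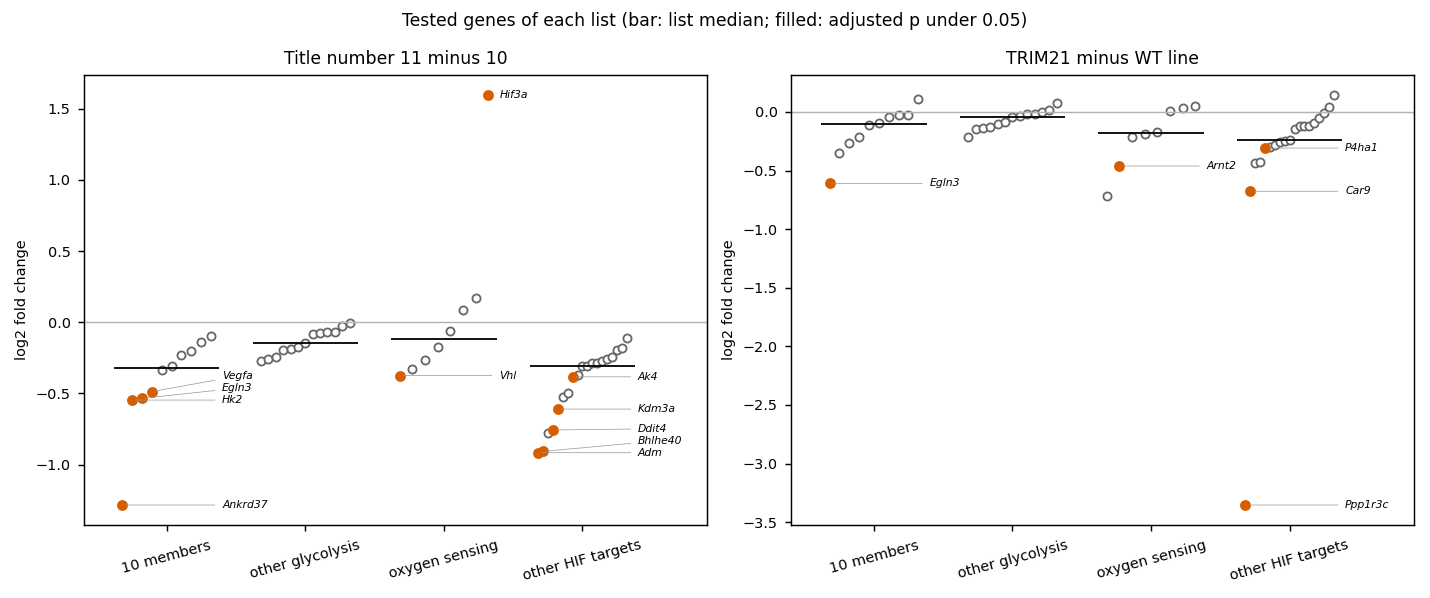
Log2 fold change of the tested genes of 4 lists for number 11 against 10 (left) and TRIM21 against WT (right); bars are list medians and filled, named points have an adjusted p under 0.05. On the left all 10 members and all 19 other HIF targets are below 0, with medians of -0.32 and -0.31, and the 13 other glycolysis genes have a median of -0.14.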

How the data were processed

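Poly(A) RNA of 18 samples was sequenced from strand-specific libraries. The deposited files hold raw read counts per gene symbol, and bcl2fastq 2.19.1.403, FastQC 0.11.5, STAR 2.5.1b, HTSeq 0.6.0, DESeq2 1.6.3 and mm10 are named without roles per the submitters' processing notes. The gene annotation and strand setting used for counting are not given in the sources used here. Reads in the 5 closing lines that name no gene stayed out of all totals: 13.1% to 18.8% of uniquely aligned reads lay in no gene. The line for alignments that are not unique held 36.4% to 40.6% of all counts in a file, these lines included. That need not be the share of reads.

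Counts were analysed with edgeR 4.0.16 (R 4.3.3): filterByExpr (minimum count 10), TMM scaling, 1 mean per group, quasi-likelihood tests and Benjamini-Hochberg adjustment over the 12140 genes tested, threshold 0.05. Title numbers were compared with the group as a term. Intervals were approximate, from the standard error and the normal distribution. Deviations used log2 CPM with a prior count of 2. RPKM used merged exons of GENCODE M21, which lists 22750 of the 24062 symbols directly and 916 more under another name; promoter sequences are RefSeq's (GRCm38.p6), and all 10 genes matched. Same-group samples differed by more than sampling noise (chi-square per degree of freedom 10.6 to 82.0 over 18 pairs), and none was merged. Alternatives were DESeq2 1.42.0 (size factors or test), limma-voom 3.58.1, no filter, a GC offset, a replicate block, only the groups compared, no group term, 1 line only, the longest transcript, and leaving out each sample. The tests were tried on simulated counts. The 10 genes, the gene lists and these alternatives were chosen with earlier results of these data known. The text names the 10 genes and up to 4 passing genes of each list per direction and comparison. Ddit4 for 11 against 10 was added after its value was seen. The 5 genes most like the mean of the 10 are named too. Oxygen-sensing genes and genes too low to test are named as well, and Ldhb and Tpi1 fall outside this rule.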

Additional observations from a re-analysis of the deposited data

Results flagged for a closer look

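For 2 of the 10 genes, every sample of one line lay above, and every sample of the other line below, the mean of its own line's PBS samples. Bnip3, the mitophagy receptor gene, lay 0.07 to 0.23 above the PBS mean (log2 CPM) in the 3 TRIM21 samples after IgG and between -0.20 and -0.01 relative to it in the 3 WT samples. The interaction was 0.17 on the log2 scale, with a standard error of 0.30 and an adjusted p of 0.972 (edgeR quasi-likelihood test), so it did not pass. Pdk1, the pyruvate dehydrogenase kinase gene, lay 0.05 to 0.29 above the PBS mean after BSA in the TRIM21 line and between -0.20 and -0.06 relative to it in the WT line. Its interaction was 0.27, with a standard error of 0.24 and an adjusted p of 0.699 by the same test, and did not pass. The PBS mean of the TRIM21 line includes TRIM21 PBS number 11, in which Bnip3 was at 43.9% and Pdk1 at 52.5% of the mean of the other 2 samples. The opposite directions rested on that sample. Without it, all 10 genes, Bnip3 and Pdk1 included, had negative log2 fold changes of IgG and of BSA against PBS in the TRIM21 line.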

How the results depend on the processing

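The directions of the 10 genes and their calls held with DESeq2 size factors and with limma-voom for the line and pairwise number comparisons. Of the 10 genes, 1 (Egln3) passed for number 14 against 11 with no filter, with the DESeq2 test and with a GC offset. With no group term 2 passed for 11 against 10 and 1 for 14 against 10. In the TRIM21 line alone 0, 1 and 0 passed for 11 against 10, 14 against 10 and any difference, and in the WT line alone 1, 1 and 1. With only the groups compared, Egln3 passed between the lines after IgG (1 gene). Against a log2 fold change near 0, Pdk1 reversed for 14 against 10 in the TRIM21 line alone (-0.0341), and Pfkp (-0.0461) and Ankrd37 (-0.0788) for 14 against 11 in the WT line alone. Fits to 1 line have fewer samples; the cause of the other changes was not tested.

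Title numbers did not pair the samples by the rule used: same-numbered samples of different groups correlated in their deviations at -0.323 to 0.579 (45 pairs, 32 over 0.1), though 16 of 18 samples correlated best with their own number. With the replicate block, Egln3 was at -0.62 between the lines (adjusted p = 0.000299, edgeR quasi-likelihood test), and 1 gene of the 10 (Egln3) passed after PBS. With the block and a GC offset 3 passed between the lines (Egln3, Pdk1 at -0.26 and Ankrd37 at -0.36), 1 after PBS and 1 after IgG. Over all genes, calls between the lines went from 750 to 1462 with the block, 2365 with the block and a GC offset and 1159 with a GC offset. After PBS they went from 208 to 847, 1988 and 343, and to 451 with DESeq2 and 44 with only the groups compared. After BSA 103 became 187 and 318 with the block, without and with the offset, and 164 with DESeq2. After IgG 94 became 173 and 246 likewise, 166 with DESeq2 and 179 with only the groups compared. For 11 against 10, 461 became 752 with DESeq2, 1037 with a GC offset, 234 with no group term, 0 in the TRIM21 line and 12 in the WT line. For 14 against 10, 1025 became 1793 with a GC offset, 387 with no group term, 65 and 14. For 14 against 11, 635 became 1064, 1311, 84, 1 and 0, in the order given for 11 against 10. For any difference, 1363 became 2695, 445, 19 and 21, in the order given for 14 against 10.

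Leaving out 1 sample at a time, 1 to 2 of the 10 genes passed between the lines, 2 to 4 for 11 against 10, 1 to 2 for 14 against 10, 0 to 1 for 14 against 11 and 2 to 4 for any difference. Over all genes, calls ran from 517 to 1268 between the lines, 126 to 670 for 11 against 10, 234 to 1498 for 14 against 10 and 79 to 1257 for 14 against 11. Values near 0 changed sign: between the lines Slc2a1 (-0.0830 to 0.03545), Hk2 (-0.0914 to 0.0551) and Pfkp (-0.108 to 0.0416). Pdk1 did so for 14 against 10 (-0.0382 to 0.0962), and Ankrd37 (-0.0817 to 0.185), Pfkp (-0.0354 to 0.248), Pgk1 (-0.119 to 0.0296) and Ldha (-0.129 to 0.0119) for 14 against 11. Per base of the longest transcript the levels became 12.1 for Pfkp, 558 for Pgk1, 1946 for Ldha, 92.5 for Pdk1, 46.1 for Vegfa, 231 for Bnip3 and 30.8 for Ankrd37.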
